A study of Mus musculus with 32 samples.

Results

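The 11 laminin chain genes and 23 integrin subunit genes described here were taken from 46165 gene records by symbol: laminin alpha, beta and gamma chains, integrin alpha subunits (16 records) and integrin beta subunits (7 records). Another 3 integrin subunit records were set aside by the same rule and are not analysed here. Of all records 18853 had at least 1 exon read in some library, among them all 34 of these genes. Itgad, with 44 exon reads over all libraries, was the 1 member below the filter on low counts, so 33 members were tested in every comparison.

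The series compared lung transcripts of C57BL/6 mouse pups after injections that usually serve as controls. Polyadenylated RNA of whole, PBS-perfused lung was sequenced in 32 libraries, 4 in each of 8 groups. The 5 groups taken at postnatal day 14 were left untreated, received saline (25 µl per g) each day from day 1 to day 13, received nuclease-free water (10 µl per g) on days 1 and 3, or received Scrambled 1 or Scrambled 2 (10 mg per kg, in water) on those same days. Scrambled 1 and Scrambled 2 are LNA oligonucleotides used as controls for microRNA inhibitors. At day 6 there were 3 groups, all injected with 25 µl on days 1 and 2: saline, Miglyol (the oil used to dissolve tamoxifen), and 0.4 mg tamoxifen in Miglyol. Tamoxifen is the drug that switches on inducible Cre lines, but no transgene is labelled in these pups. Day 6 pups were killed with pentobarbital and day 14 pups under isoflurane, so age cannot be told apart from the anaesthetic or the injection scheme. The labels do not tie each library to its own animal, so a p-value here reflects the spread among libraries, which may be technical.

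Laminins are cross-shaped trimers of 1 alpha, 1 beta and 1 gamma chain that polymerise into the basement membrane under epithelium and around endothelium and muscle. Integrins are membrane receptors of 1 alpha and 1 beta subunit that hold cells to laminin, collagen, fibronectin and other ligands, or, on leukocytes, to other cells. In the lung, basement membranes line the alveolar epithelium and the capillaries beside it, and both are rebuilt as alveoli form after birth.

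Libraries held 7918537 to 12443221 exon reads, of which the 34 genes together took 0.534% to 0.665%. All 11 alveolar type 1, 9 alveolar type 2 and 9 endothelial markers had reads in every group, so genes of lung tissue were present throughout. Water replicate 3 stood apart in tissue content: the summed level of 9 skeletal muscle markers reached 373 CPM (exon read counts scaled to library size with TMM factors) there, against a water group median of 10.1 CPM. The same library reached 300.03 CPM in 6 adipose markers (median 11.6 CPM) and 33.1 CPM in 6 thymus markers (median 9.54 CPM). Libraries with high Xist reads were unevenly spread over the groups, from 0 of 4 water libraries to 3 of 4 untreated libraries. Reads in some members were shared with other records: 63.6% of Itga4 and 87.7% of Itgb1 exon reads were unique. Itgb2 overlaps Fam207a on the opposite strand by 7642 bases, and since the handling of strand is not given in the sources used here, their reads cannot be told apart.

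Itga2 (chr13:114835912-114932041, minus strand) lies 26037 bases from Itga1 (chr13:114958079-115101964, minus strand), and both encode alpha subunits of collagen receptors that pair with beta1. No other gene record lies between them. Coordinates are those of the files, and the start of each of the 34 members lies within 5 kb of the RefSeq table of GRCm38.p6. Itga1 and Itga2 had the largest falls with Miglyol, and Lama5 (chr2:180176373-180225905, minus strand) was the most abundant laminin chain to fall with age by over 0.4 on the log2 scale. The 250 bases before the RefSeq start (GRCm38.p6) are therefore shown for these genes, at chr13:115101965-115102214 for Itga1, chr13:114932101-114932350 for Itga2 and chr2:180225860-180226109 for Lama5, all read on the minus strand, with GC boxes in capitals. The Lama5 window lies partly inside the gene record, both that of the files and that of RefSeq, so its 250 bases precede a start within that record.
Itga1: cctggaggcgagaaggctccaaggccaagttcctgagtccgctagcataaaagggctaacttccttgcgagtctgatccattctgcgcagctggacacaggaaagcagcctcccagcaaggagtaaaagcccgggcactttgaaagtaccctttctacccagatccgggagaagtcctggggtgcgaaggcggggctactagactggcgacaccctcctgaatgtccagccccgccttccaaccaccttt
Itga2: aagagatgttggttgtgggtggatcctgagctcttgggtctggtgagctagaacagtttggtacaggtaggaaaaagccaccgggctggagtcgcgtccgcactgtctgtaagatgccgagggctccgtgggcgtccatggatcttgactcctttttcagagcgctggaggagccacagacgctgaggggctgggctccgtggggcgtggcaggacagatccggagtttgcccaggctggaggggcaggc
Lama5: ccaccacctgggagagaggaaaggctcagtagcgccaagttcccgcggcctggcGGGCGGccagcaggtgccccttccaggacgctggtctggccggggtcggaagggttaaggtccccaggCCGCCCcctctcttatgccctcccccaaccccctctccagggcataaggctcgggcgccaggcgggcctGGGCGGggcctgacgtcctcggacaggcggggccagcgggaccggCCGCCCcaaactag
The Lama5 window was 72.4% G and C and held 4 GC boxes, a GGGCGG or its reverse complement CCGCCC. The Itga1 and Itga2 windows were 57.6% and 60.8% G and C and held none. RefSeq gave 23 promoter windows for 20 of the 34 members: 8 held a GC box (34.8%, against 32.7% of all 32851 promoter windows), and none held TATAAA (12.4% of all windows) or TGACTCA (4.46% of all windows), each searched on both strands without overlap between these motifs.

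Per transcript length, Itgb1, the beta subunit that most matrix-binding alpha subunits share, was the most abundant member. Its group means in deposited TPM, which is scaled by transcript length, ran from 763 to 894. Among laminin chains Lamc1, the gamma chain of most laminin trimers, came first with group means of 248 to 337 TPM, followed by Lamb1 with 155 to 210 TPM. Lamb2, Lama4 and Lama5 had highest group means of 138, 127 and 125 TPM, and their ranges over groups overlapped (119, 94.1 and 76.3 TPM at the lowest). Itga6 and Itga3, alpha subunits of the main epithelial laminin receptors, reached group means of 119 and 117 TPM. Itga11, Lama1 and Itgae had group means under 3 TPM, and Itgad, an alpha subunit of leukocytes, did not exceed 0.135 TPM. Lama4, the alpha chain of vessel laminins, and Lama5, the broad alpha chain of lung basement membranes, supplied most of the alpha chain TPM.

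**Figure D1:**
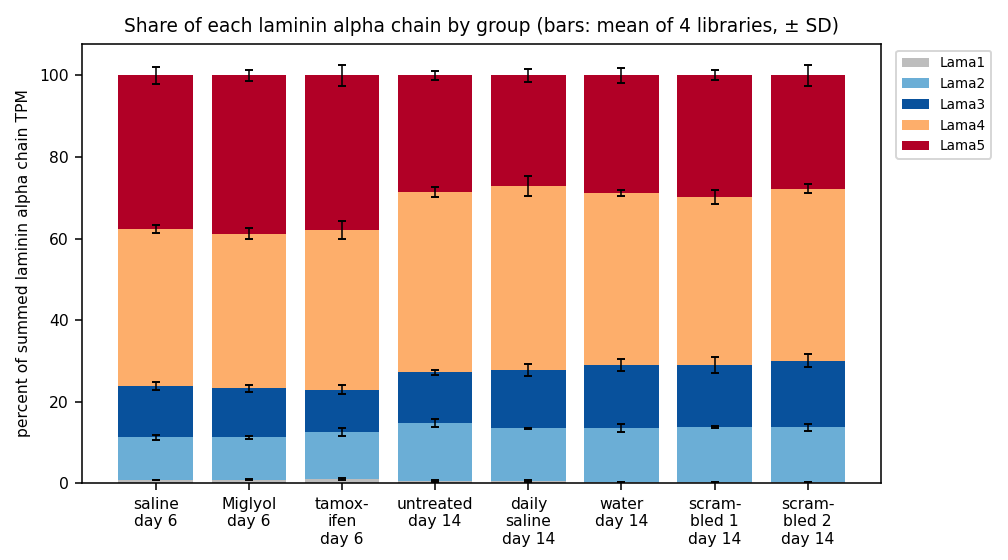
Percent of the summed deposited TPM of the 5 laminin alpha chain genes held by each of them (y axis) in the 8 groups (x axis), stacked bars of the mean of 4 libraries with SD. Lama5 holds 38.1% over the day 6 libraries and 28.4% over the day 14 libraries, while Lama4 goes from 38.5% to 43.0%.

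Lama5 held 38.1% ± 1.93 (SD, n = 12) of alpha chain TPM at day 6 and 28.4% ± 1.82 (SD, n = 20) at day 14, and the libraries of these ages did not overlap (34.9% to 41.1% against 25.4% to 30.96%). The summed TPM of the 5 alpha chains was 284 ± 46.7 (SD, n = 12) over the day 6 libraries and 282 ± 25.6 (SD, n = 20) over the day 14 libraries. Between the saline groups alone it was lower at day 14, 281 ± 20.7 (SD, n = 4, 263 to 309) against 332 ± 15.7 (SD, n = 4, 319 to 355) at day 6, without overlap. These shares and sums are given without a test.

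The comparison of the day 14 with the day 6 groups covers the interval in which alveoli begin to form. In all, 18 members rose and 12 fell with age (edgeR, adjusted p under 0.05), where 61.4% of the 14406 genes tested were called, 30% higher and 31.3% lower. Among genes of at least 10 CPM the share was 64.5%, with 25 of 28 members called. The median log2 fold change was 0.17 over the members and -0.01 over all genes.

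**Figure D2:**
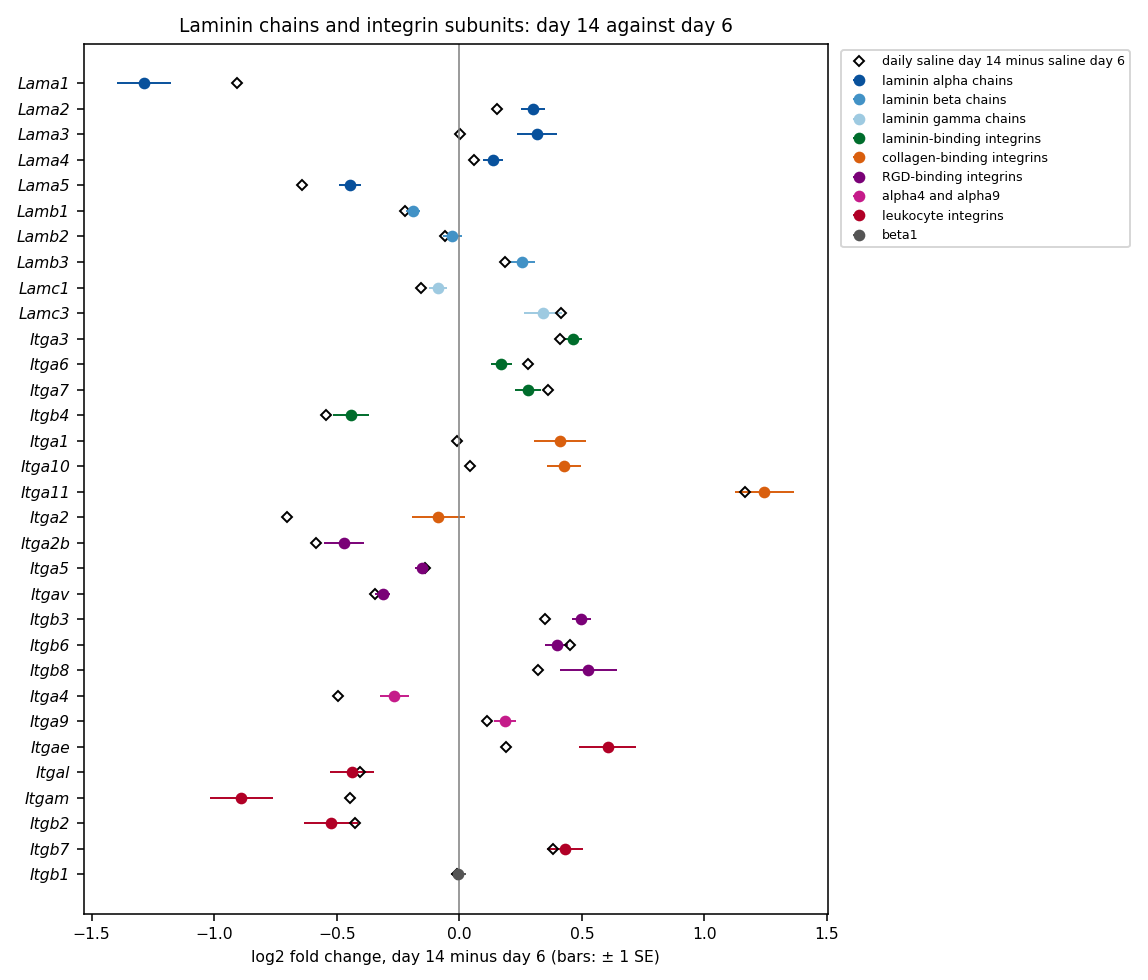
Log2 fold change of 32 members between day 14 and day 6 (x axis, filled points with bars of 1 SE, coloured by role) and, as open diamonds, between daily saline at day 14 and saline at day 6 alone. Lama1 and Itga11 lie farthest from 0 at -1.29 and 1.24, and the Itga1 diamond lies at -0.011.

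Among laminin alpha chains, Lama1, an alpha chain of embryonic basement membranes, ran from 6.82 to 11.0 CPM at day 6 (median 9.05) and from 1.94 to 6.54 CPM at day 14 (median 3.27). The ages did not overlap, and Lama1 fell by 1.29 on the log2 scale (SE 0.11, adjusted p = 1.7e-12). Lama5 ran from 375 to 582 CPM at day 6 (median 493) and from 309 to 402 CPM at day 14 (median 357). It fell by 0.45 (SE 0.05, adjusted p = 4.4e-10), although tamoxifen replicate 2, the lowest day 6 library, lay inside the day 14 range. Lama2, the muscle and mesenchymal alpha chain, rose from a median of 125 to 147 CPM (log2 fold change 0.30, SE 0.05, adjusted p = 3.4e-06). Lama3, an alpha chain of epithelial laminins, rose by 0.32 (SE 0.08, adjusted p = 0.0012), and Lama4 by 0.14 (SE 0.04, adjusted p = 0.0038).

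Of the beta and gamma chains, Lamb3 (0.26, SE 0.05) and Lamc3 (0.34, SE 0.08) rose, while Lamb1 (-0.19, SE 0.03) and Lamc1 (-0.09, SE 0.04) fell. Lama3 and Lamb3, both chains of epithelial laminins, rose over the pooled ages, but neither passed the test between the saline groups alone (0.00 and 0.19). Alveolar type 1 markers rose in 9 of 11 cases over the same comparison (summed levels of 4706 to 5522 CPM at day 6 and 6273 to 7988 CPM at day 14) and endothelial markers in 8 of 9 (3218 to 3635 CPM and 3919 to 4893 CPM). Other lists went the other way or both ways. Alveolar type 2 markers fell in 4 of 9 cases and mesothelial markers in 3 of 5, and none of either rose. Airway epithelial markers rose in 3 of 6 tested cases and fell in 2. The part of all these cells in the laminin values was not tested. Lamb2 gave -0.03 (SE 0.04) and did not pass. The fall of Lamc1 had an adjusted p of 0.0398 and the call held in 18 of the 32 fits that left out 1 library.

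**Figure D3:**
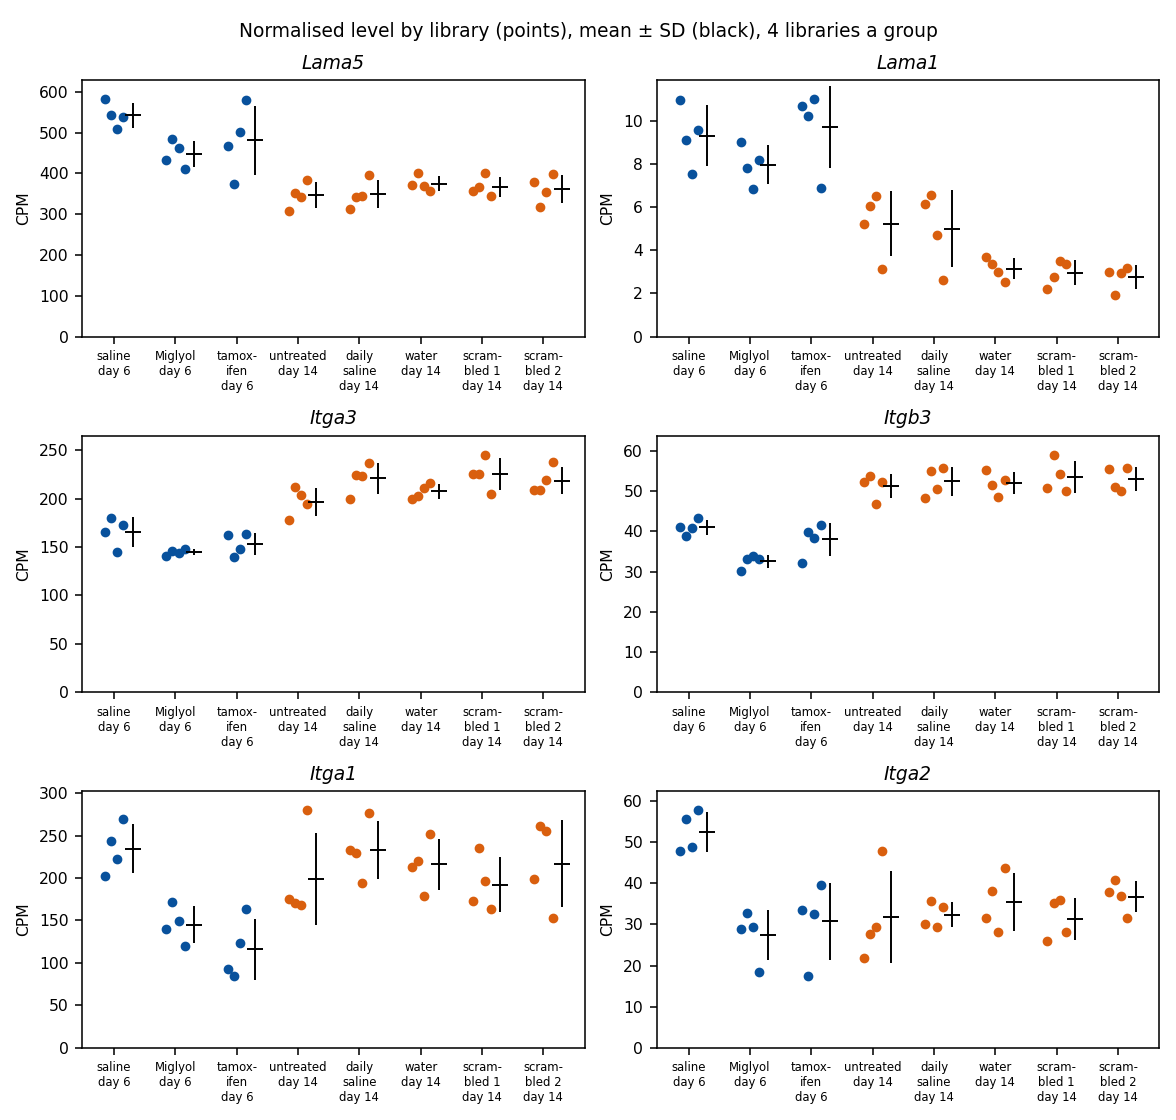
CPM of Lama5, Lama1, Itga3, Itgb3, Itga1 and Itga2 (y axes from 0) in each library of the 8 groups (x axes, blue for day 6 and orange for day 14), with mean and SD beside the points. Itga1 and Itga2 are highest at day 6 in the saline group, and Itgb3 is above 46 CPM in all day 14 libraries.

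The laminin receptors moved in both directions. Itga3, the alpha subunit of a laminin receptor of epithelium, ran from 139 to 180 CPM at day 6 (median 148) and from 178 to 245 CPM at day 14 (median 212), with 1 untreated library inside the day 6 range. It rose by 0.46 (SE 0.04, adjusted p = 1.3e-13). Itga7, the muscle laminin receptor subunit, rose by 0.28 (SE 0.05) and Itga6 by 0.17 (SE 0.04). Itgb4, the partner of alpha6 in hemidesmosomes, fell by 0.44 (SE 0.07, adjusted p = 2.4e-06), from a median of 14.99 to 10.98 CPM. Itgb1 gave -0.00 (SE 0.03), at medians of 1482 CPM at day 6 and 1495 CPM at day 14.

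Of the collagen receptor subunits, Itga11, a fibrillar collagen receptor of fibroblasts, was lowest at 1.11 CPM and highest at 3.19 CPM at day 6 (median 1.67) and ran from 3.27 to 6.01 CPM at day 14 (median 4.28). It rose by 1.24 (SE 0.12, adjusted p = 4.3e-11) and the ages did not overlap. On total gene reads the Itga11 value was 0.50 (SE 0.09, edgeR, adjusted p = 1.7e-05). Itga10, a collagen receptor of cartilage and fibroblasts, rose by 0.43 (SE 0.07) and Itga1 by 0.41 (SE 0.11, adjusted p = 0.0015), while Itga2 gave -0.09 (SE 0.11). The values of Itga1, Itga10 and Itga2 depended on which groups were compared. Between the saline groups Itga1 gave -0.011 (SE 0.12), Itga10 gave 0.043, and Itga2 fell by 0.70 (SE 0.08, adjusted p = 1.3e-07).

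Integrins that bind the RGD sequence of fibronectin, vitronectin and latent TGF-beta moved in both directions. The beta subunits Itgb3 (0.50, SE 0.04, adjusted p = 8.8e-14), Itgb6 (0.40, SE 0.05) and Itgb8 (0.53, SE 0.12) rose. Itgb1, shared by most matrix-binding alpha subunits, gave -0.00 (SE 0.03). Itgb3, the beta subunit shared by the vitronectin and platelet receptors, ran from 30.1 to 43.2 CPM at day 6 (median 38.6) and from 46.8 to 59.0 CPM at day 14 (median 52.3), without overlap. The 3 alpha subunits analysed fell: Itgav, their common alpha partner, by 0.31 (SE 0.03), Itga5, the fibronectin receptor subunit, by 0.15 (SE 0.03), and Itga2b, the platelet alpha subunit, by 0.47 (SE 0.08). Platelet markers fell in 4 of 7 cases over the same comparison, with summed levels of 16.9 to 25.8 CPM in the day 6 groups and 13.3 to 21.5 CPM in the day 14 groups, and none was at 0. Their part in the Itga2b result was not tested. Itga4 fell by 0.26 (SE 0.06) and Itga9, its relative in binding tenascin and osteopontin, rose by 0.18 (SE 0.04).

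Of the leukocyte integrins, Itgam and Itgb2, which form the complement receptor of neutrophils and macrophages, fell by 0.89 (SE 0.13, adjusted p = 9.1e-07) and by 0.52 (SE 0.11). Itgal, the alpha subunit of LFA-1, fell by 0.44 (SE 0.09). Itgb7, the beta subunit of gut-homing and epithelium-bound lymphocytes, rose by 0.43 (SE 0.07) and its partner Itgae by 0.60 (SE 0.12, adjusted p = 3.7e-05). Between the saline groups alone, which leave out the tamoxifen libraries, Itgam fell by 0.45 (SE 0.12), Itgb2 by 0.43 (SE 0.10) and Itgal by 0.40 (SE 0.11). On total gene reads, which count introns too, the Itgae value was -0.72 (edgeR, adjusted p = 1.3e-11), and 76.0% of Itgae gene reads were intronic. In bulk tissue, fewer cells of a type and less RNA per cell cannot be told apart. Neutrophil markers fell in 5 of 6 tested cases, from sums of 62.1 to 888 CPM in the day 6 groups to 46.5 to 89.9 CPM in the day 14 groups, with Elane, Mpo or Ly6g at 0 in some groups. Their sums overlapped between the saline groups, at 62.1 to 76.6 CPM at day 6 and 57.5 to 73.6 CPM at day 14. The high day 6 sums were those of Miglyol (119 to 162 CPM) and tamoxifen (243 to 888 CPM). Of 8 macrophage markers 2 rose and 3 fell, with sums of 1325 to 2229 CPM at day 6 and 1484 to 2676 CPM at day 14 and none at 0. General leukocyte markers rose in 10 of 13, with leukocyte marker sums of 239 to 401 CPM in the day 6 groups and 262 to 440 CPM in the day 14 groups, and none of them at 0. The part of these cells in the results was not tested.

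Between the 2 saline groups alone, 22 members were called, 21 of them among the 30. The share of all genes called between the saline groups is not given here, and the 61.4% belongs to all 32 libraries. By the call alone, a loss can thus not be told apart from the effect of fewer libraries. Among the members that lost their call were Itga1, Itga9, Itga10, Itgae, Itgb8, Lama3, Lama4 and Lamb3, and the 1 that gained one was Itga2. Some values moved as well. Itga1, Itga10 and Lama3 went from 0.41, 0.43 and 0.32 over all libraries to -0.011, 0.043 and 0.002 between the saline groups. Lamb3 went from 0.26 to 0.19. The saline groups also differed in the intronic share of reads, at 15.1% ± 0.898 (SD, n = 4) at day 6 and 10.0% ± 1.04 (SD, n = 4) at day 14. The part of that share in the saline comparison was not tested. Of 33 members, 3 had CPM ranges at the 2 ages that did not overlap (Itga11 and Itgb3 higher, Lama1 lower), against 9.41% of all genes tested.

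Among basement membrane partners of laminin, 10 of 18 rose and 5 fell with age. Ntn4, a netrin that resembles the laminin arms, rose by 1.52 (SE 0.06) and the basement membrane calcium-binding protein gene Sparc by 0.59 (SE 0.03), whereas Frem2 and Frem1, of the Fraser complex under epithelium, fell by 1.71 (SE 0.06) and by 1.24 (SE 0.06). Of 23 integrin ligands tested 10 rose and 9 fell, with Npnt, nephronectin of the basement membrane, rising by 0.94 (SE 0.04) and Tnc, the tenascin-C gene, which fell by 0.67 (SE 0.04). Of 38 integrin adaptors and signalling genes 18 rose and 7 fell, led by Lims2 at 1.04 (SE 0.05). Of 10 other laminin receptors 4 rose and 4 fell, Dag1, which encodes dystroglycan, rising by 0.37 (SE 0.04). These counts are to be read against the same 61.4%.

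The Miglyol group was compared with the day 6 saline group to read the effect of the oil alone. Of 33 members 7 fell and none rose, where 7.29% of the 14107 genes tested fell and 10.6% were called in either direction. All 7 had ranges that did not overlap, among 11 members so separated (10 lower and Itgb6 higher), where 21.5% of all genes tested were separated and 11.5% were lower. The 11 laminin chains all had values below 0, where the median over all genes was 0.02, but only Lama2, Lama4 and Lamc1 passed the test.

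**Figure D4:**
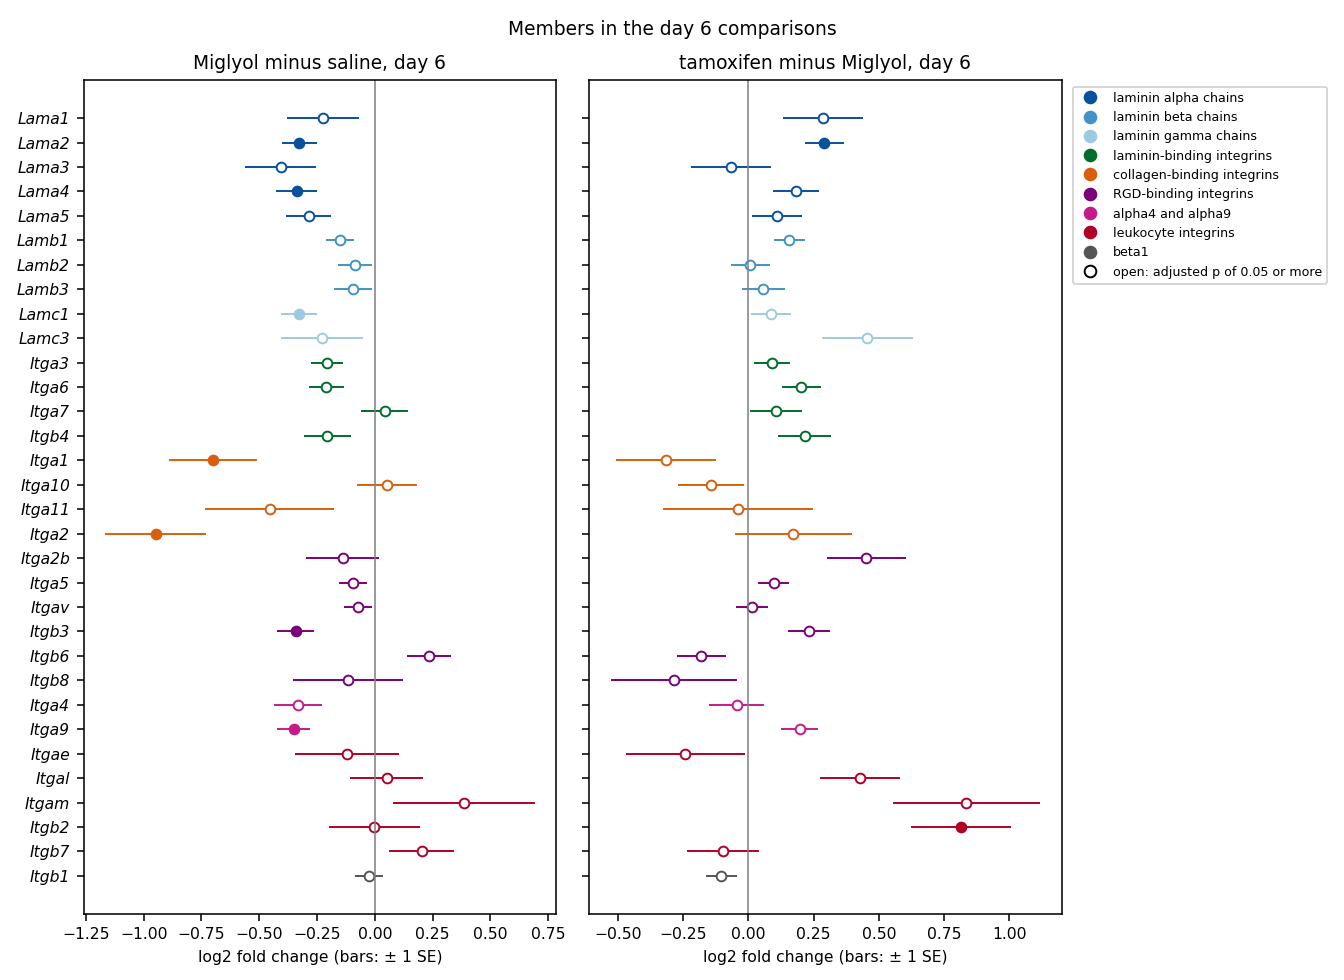
Log2 fold change of 32 members at day 6 (x axes, bars of 1 SE) for Miglyol against saline (left) and tamoxifen against Miglyol (right), coloured by role, with filled points for an adjusted p under 0.05. The 7 filled points at the left all lie below 0, with Itga2 at -0.95 and Itga1 at -0.70, and the 2 at the right are Lama2 and Itgb2.

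The lead members were the neighbouring collagen receptor genes of chromosome 13 whose promoters are shown above. Itga2 was at 47.9, 55.6, 48.9 and 57.7 CPM in saline libraries and at 29.0, 32.7, 29.5 and 18.5 CPM in Miglyol libraries, and fell by 0.95 (SE 0.22, adjusted p = 0.0234). Itga1 was at 202, 243, 223 and 270 CPM in saline and at 140, 172, 149 and 120 CPM in Miglyol, and fell by 0.70 (SE 0.19, adjusted p = 0.0419). Every Miglyol library was below every saline library for both genes, and Miglyol replicate 4 was the lowest for each. Each was called in 2 of the 8 fits that left out 1 of these libraries. Of the other collagen receptor subunits, Itga11 gave -0.45 (SE 0.28) and Itga10 0.05 (SE 0.13), neither past the test.

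Lamc1 was at 952, 1018, 897 and 1008 CPM in saline and at 773, 815, 813 and 702 CPM in Miglyol, and fell by 0.33 (SE 0.08, adjusted p = 0.0159). Lama4 fell by 0.34 (SE 0.09, adjusted p = 0.0240) and Lama2 by 0.33 (SE 0.07, adjusted p = 0.0146). Lama5 gave -0.29 (SE 0.10, adjusted p = 0.0654) with ranges that did not overlap. Itga9 was at 203, 214, 219 and 233 CPM in saline and at 178, 172, 177.3 and 157 CPM in Miglyol, and fell by 0.35 (SE 0.07, adjusted p = 0.0097). It was the 1 member called in all 8 fits that left out a library. Itgb3 fell by 0.34 (SE 0.08, adjusted p = 0.0163), from 38.7 to 43.2 CPM in saline to 30.1 to 33.8 CPM in Miglyol. Summed alpha chain TPM was 332 ± 15.7 (SD, n = 4) in saline and 248 ± 29.7 (SD, n = 4) in Miglyol, while Lama5 kept a share of 37.7% ± 2.18 and 38.8% ± 1.26 of it.

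Of all genes tested 7.29% fell with Miglyol, and of genes of at least 10 CPM 9.23% did. The list counts below are to be read against these shares. Of the basement membrane partners 7 of 18 fell and none rose, with a median of -0.27. Among them were Nid1 (nidogen-1, which links laminin to collagen IV) at -0.29 (SE 0.06), Hspg2 (perlecan) at -0.42 (SE 0.10), Agrn (agrin) at -0.26 (SE 0.06) and Pxdn (peroxidasin, which crosslinks collagen IV) at -0.27 (SE 0.06). Of 23 integrin ligands 3 fell, led by Fn1 (fibronectin) at -0.48 (SE 0.10), and of 38 adaptors 8 fell, led by Dst (dystonin, a hemidesmosome linker) at -0.70 (SE 0.12) and Tln1 (talin-1, which activates integrins) at -0.30 (SE 0.06). Of 10 other laminin receptors 1 rose, Rpsa, at 0.24 (SE 0.07). Smooth muscle and pericyte markers fell in 3 of 9 cases (summed level 2108 to 2310 CPM in saline and 2065 to 2388 CPM in Miglyol), endothelial markers in 2 of 9 (3404 to 3635 CPM and 3242 to 3442 CPM) and mesenchymal markers in 1 of 8 (7616 to 8617 CPM and 7332 to 8471 CPM). None of these markers was at 0. Airway epithelial sums were higher with Miglyol without overlap (3784 to 4546 CPM in saline and 4870 to 5407 CPM in Miglyol), with 1 of 5 tested markers called. Alveolar type 2 sums were too (13311 to 14853 CPM and 14923 to 18557 CPM), with 1 of 9 called. So were neutrophil sums (62.1 to 76.6 CPM and 119 to 162 CPM), with none of 6 tested markers called and Elane at 0 in saline. The part of all these cells was not tested.

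The intronic share of reads also differed, at 15.1% ± 0.898 (SD, n = 4) in saline and 13.1% ± 1.25 (SD, n = 4) in Miglyol libraries. With that share as a covariate no member passed, at -0.54 for Itga2, -0.36 for Itga1, -0.30 for Itgb3, -0.22 for Lamc1, -0.21 for Itga9 and Lama2, and -0.20 for Lama4. The Itgb3 value lay between -0.37 and -0.29 under all alternatives run. Without saline replicate 4 only Itga9 was called (edgeR, adjusted p = 0.0472) and without Miglyol replicate 4 only Itga9 and Itgb3. Without Miglyol replicate 1 or 3, or saline replicate 2 or 3, 4 members were called.

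Tamoxifen was compared with Miglyol, its solvent. Lama2 and Itgb2 rose and no member fell, a share near the 5.68% of genes called (3.71% higher). Lama2 was at 106, 110, 109 and 97.7 CPM in Miglyol and at 141, 109, 138 and 126 CPM in tamoxifen libraries, and rose by 0.29 (SE 0.07, adjusted p = 0.0258). The groups overlapped through tamoxifen replicate 2. Itgb2, the common beta subunit of leukocyte integrins, was at 41.6, 34.3, 38.8 and 37.2 CPM in Miglyol and at 68.9, 67.1, 90.8 and 39.2 CPM in tamoxifen, and rose by 0.81 (SE 0.19, adjusted p = 0.0287). Tamoxifen replicate 4 lay among the Miglyol libraries. The member with the next smallest p was Itga2b at 0.45 (SE 0.15, adjusted p = 0.0924).

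**Figure D5:**
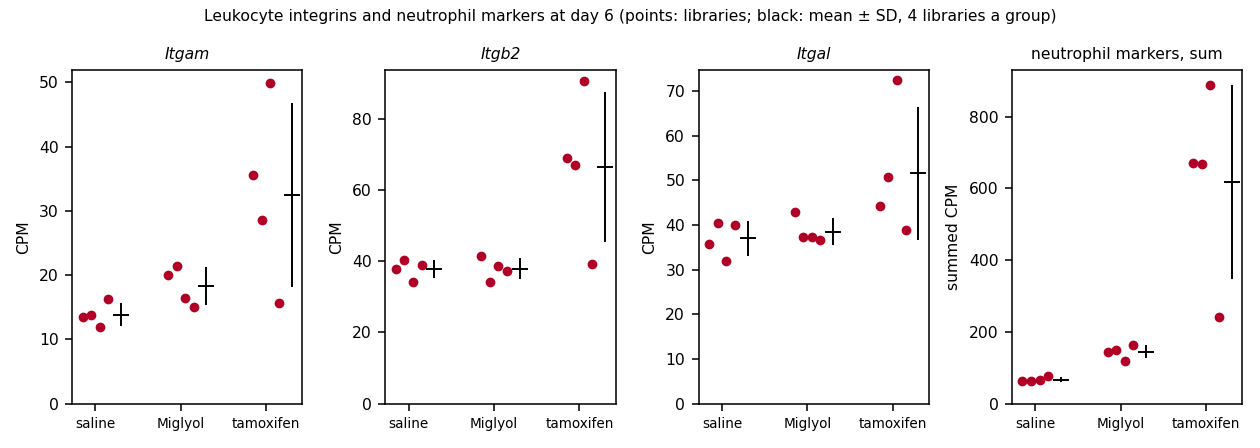
CPM of Itgam, Itgb2 and Itgal and the summed CPM of 9 neutrophil markers (y axes from 0) in the 12 day 6 libraries by group (x axes), with mean and SD beside the points. In tamoxifen the marker sum runs from 243 to 888 CPM, and the lowest library is also the lowest in the 3 integrin genes.

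Itgam was at 20.04, 21.5, 16.5 and 15.1 CPM in Miglyol and at 35.5, 28.6, 49.96 and 15.7 CPM in tamoxifen, with a log2 fold change of 0.84 (SE 0.28, adjusted p = 0.125), and Itgal gave 0.43 (SE 0.15, adjusted p = 0.130). Without tamoxifen replicate 4, 6 members were called (edgeR), among them Itgam at 1.06 (adjusted p = 0.000654), Itgal at 0.54 and Itga1 at -0.52. Neutrophil markers rose in 5 of 6 tested cases with a median of 2.21, at summed levels of 119 to 162 CPM in Miglyol and 243 to 888 CPM in tamoxifen, with none at 0. Macrophage markers rose in 4 of 8 cases, from 1417 to 1661 CPM in Miglyol to 2022 to 2229 CPM in tamoxifen. General leukocyte markers rose in 3 of 12 cases. The part of these cells in the Itgb2 result was not tested.

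Parvg and Fermt3, the parvin and kindlin of blood cells, were 2 of the 3 adaptors of 38 that rose, by 0.72 (SE 0.14) and 0.49 (SE 0.11). Of 23 ligands 3 rose, among them Thbs1 (thrombospondin-1) at 0.48 (SE 0.08) and Fn1 at 0.35 (SE 0.10), and Fbln5 (fibulin-5 of elastic fibres) fell by 0.29 (SE 0.06). No basement membrane partner passed in this comparison by edgeR, with 2 of 18 at an unadjusted p under 0.05. Leaving out Miglyol replicate 1 or 4 removed both member calls, and Itgb2 was not called without any 1 Miglyol library (adjusted p of 0.0581 to 0.0888). Without tamoxifen replicate 2, 4 members were called.

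Tamoxifen was also set against saline, which shares its libraries with the other day 6 comparisons. Here 3 members rose and 6 fell, against 11.3% and 12.3% of genes (23.7% in either direction). Itga1, at 92.6, 84.7, 124 and 163 CPM in tamoxifen, fell by 1.02 (SE 0.19, adjusted p = 0.0043), and Itga2, at 33.6, 17.6, 32.4 and 39.6 CPM, fell by 0.78 (SE 0.22, adjusted p = 0.0249). Their ranges did not overlap those of saline, which held for 5 members in all, all lower, where 22.8% of genes were separated in either direction. Lama3 (-0.47, SE 0.15, edgeR, adjusted p = 0.0425), Itga4 (-0.38, SE 0.10, adjusted p = 0.0175) and Lamc1 (-0.24, SE 0.08, adjusted p = 0.0307) also fell. Their calls held in 3, 6 and 4 of the 8 fits that left out 1 of these libraries, against all 8 for Itga1 and 5 for Itga2. Endothelial markers fell in 4 of 9 cases and rose in 1 (3218 to 3424 CPM in tamoxifen), mesenchymal markers fell in 4 of 8 (6112 to 7586 CPM), and smooth muscle and pericyte markers fell in 2 of 9 and rose in 1 (1955 to 2503 CPM). Airway epithelial markers rose in 5 of 5 tested cases, from 3784 to 4546 CPM in saline to 7264 to 9021 CPM in tamoxifen. None of these markers was at 0, and their part in the falls was not tested. Itgam rose by 1.22 (SE 0.29), Itgb2 by 0.81 (SE 0.19) and Itgal by 0.48 (SE 0.15, edgeR, adjusted p = 0.0384). The Itgal call held in 2 of the 8 fits that left out a library, those of Itgam and Itgb2 in all 8. Neutrophil markers rose in 6 of 6 tested cases, from sums of 62.1 to 76.6 CPM in saline, where Elane was at 0, to 243 to 888 CPM. Macrophage markers rose in 6 of 8 cases (1325 to 1489 CPM in saline and 2022 to 2229 CPM in tamoxifen) and general leukocyte markers in 6 of 12 tested (239 to 264 CPM and 295 to 401 CPM), with none at 0. Their part in the rises was not tested. Of the basement membrane partners 11 of 18 fell. The intronic share was 13.3% ± 1.33 (SD, n = 4) in tamoxifen libraries, and with it as a covariate Itga1 alone passed, at -0.73 (edgeR, adjusted p = 0.0245), and without saline replicate 4 Itga1, Itgam and Itgb2 did. The count was 4 without saline replicate 2 and 5 without tamoxifen replicate 2 or 3.

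At day 14, in 6 comparisons that share the untreated, water or Scrambled libraries, 1 member passed the test in 1 comparison. Daily saline against untreated called none, where 0.233% of the 14179 genes tested were called (edgeR), with 5 members at an unadjusted p under 0.05 and none called by DESeq2. The smallest p belonged to Itga10 at -0.42 (SE 0.14, adjusted p = 0.276) and the next to Itga3 at 0.16 (SE 0.07). Water against untreated called none (background 0.0494%), with 7 at an unadjusted p under 0.05 and none by DESeq2. Lamb3 gave 0.32 (SE 0.10, adjusted p = 0.322), with all water libraries above all untreated libraries, a separation (in either direction) that 4.16% of genes showed. Lama1 gave -0.73 (SE 0.25), at 5.20, 6.03, 6.53 and 3.15 CPM in untreated and 3.69, 3.38, 2.97 and 2.54 CPM in water libraries.

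Daily saline against water called 1 member, Itga10, where 2.74% of genes were called and 1.71% fell. Itga10 was at 8.48, 8.90, 11.3 and 8.33 CPM in daily saline and at 12.2, 13.0, 16.1 and 11.1 CPM in water, and fell by 0.52 (SE 0.14, adjusted p = 0.0381). The groups overlapped by 1 library on each side, and the call was lost without daily saline replicate 1, 2 or 4, or without water replicate 2 or 3, at -0.40 without water replicate 3. Water replicate 3, the highest in Itga10, is also the library with the high skeletal muscle, adipose and thymus markers. The 5 skeletal muscle, 5 adipose and 3 thymus markers tested all had values below 0 here, and none passed. The part of that tissue in the values was not tested. Itga6 gave 0.27 (SE 0.08, adjusted p = 0.0687) and Lama1 0.66 (SE 0.25, adjusted p = 0.167). General leukocyte markers fell in 3 of 13 cases, at 262 to 372 CPM in daily saline and 358 to 419 CPM in water, with none at 0. The 5 leukocyte integrins tested had values from -0.48 to -0.24 and none passed. The intronic share was 10.0% ± 1.04 (SD, n = 4) in daily saline and 14.1% ± 1.42 (SD, n = 4) in water libraries, and with it as a covariate no member passed.

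Scrambled 1 against water called no member (background 0.12%), with 4 at an unadjusted p under 0.05. Lamb1 was at 356, 348, 373 and 356 CPM with Scrambled 1 and at 387, 437, 422 and 439 CPM with water, without overlap (5.51% of genes were so separated), and gave -0.24 (SE 0.06, adjusted p = 0.0970). By DESeq2 this was the 1 member called. Itga9 gave -0.22 (SE 0.09) and Itgav -0.14 (SE 0.06), the next smallest p. Scrambled 2 against water called none (background 0%), with 1 at an unadjusted p under 0.05, Itgav at -0.14 (SE 0.06), and none by DESeq2. Itgal gave -0.33 (SE 0.17) and Itga10 -0.24 (SE 0.13). Scrambled 1 against Scrambled 2 called none (background 0.205%), with 3 at an unadjusted p under 0.05 and none by DESeq2, and Itga9 gave -0.27 (SE 0.09, adjusted p = 0.284), Itga10 0.38 (SE 0.13) and Lamb1 -0.14 (SE 0.06). The median SE of a member was 0.11 in the comparison of daily saline with untreated pups.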

How the data were processed

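Counts of exon reads per gene were deposited by the authors for each of 32 libraries of stranded, polyA-selected lung RNA, 4 a group, together with TPM values that the authors computed. The submitters' processing notes name bcl2fastq 2.0. Not given in the sources used here are the aligner, the build and how strand was treated. Reads with several matching places are part of these counts.

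Using R 4.3.3 and edgeR 4.0.16, quasi-likelihood tests (robust, TMM factors, filterByExpr) were run on the counts, with all 5 groups of day 14 (14179 genes), all 3 groups of day 6 (14107 genes), and all 32 libraries for age (14406 genes). A gene was called at a Benjamini-Hochberg adjusted p under 0.05 over all genes tested. The tests were checked on simulated data. CPM is TMM-normalised, and SE is that of the log2 fold change. Deposited TPM served for levels between genes and for chain sums and shares, which were compared between groups without a test. Replicates of a group differed by more than sampling noise (chi-square per gene 2.38 to 16.6).

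All members past the threshold are named, or above 20 the 10 largest rises and falls with others by role. Where fewer than 3 passed, the 3 with the smallest p are given. The values of 1 tested member are not reported here, though it is part of the counts. From other lists up to 4 genes are named. The members, the gene lists and the markers were chosen with earlier results of these data known. Alternatives were RLE scaling, DESeq2 1.42.0, other filters, unique exon reads, total gene reads, intronic share or Xist as a covariate, a replicate block, only the libraries compared, and each library left out. Promoter sequences are RefSeq's (GRCm38.p6).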

Additional observations from a re-analysis of the deposited data

Results flagged for a closer look

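Of 272 combinations of a member and a group of 4 libraries, 10 held a library whose gap to the nearest of the others exceeded Dixon's 95% critical value. Chance flags about 1 in 20 groups, which is more than were found. Untreated replicate 4 was high in Itga1 (279 CPM, others 168 to 176) and Itga9 (260 CPM, others 204 to 209), and untreated replicate 1 was low in Itga5 (118 CPM, others 123 to 124). Miglyol replicate 1 was high in Itga6 (227 CPM, others 200 to 203) and Itgal (42.9 CPM, others 36.6 to 37.3). Water replicate 3, the library with the high skeletal muscle markers, was high in Itga7, the muscle laminin receptor subunit (30.3 CPM, others 21.5 to 21.8). Tamoxifen replicate 2 was low in Lamc1 (687 CPM, others 852 to 873). Scrambled 1 replicate 3 was low in Itgb2 (25.7 CPM, others 32.5 to 33.1), Scrambled 1 replicate 2 was low in Itgb8 (6.14 CPM, others 9.45 to 9.87), and Scrambled 2 replicate 2 was high in Itgad (0.229 CPM, others 0.109 to 0.127), a gene with few reads.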

How the results depend on the processing

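The age comparison had 29 to 30 called members when any library was left out, and 22 between the saline groups alone. Within it the Itga1 value turned to -0.011 between the saline groups and the Itgae value to -0.72 on total gene reads. For Miglyol against saline (7 called) the count was 0 with the intronic share as a covariate, 13 by DESeq2, 15 with only the libraries compared, and 1 to 8 with a library left out. For tamoxifen against Miglyol (2 called) it was 1 without a filter on low counts, 1 with only the libraries compared, and 0 to 6 with a library left out. For tamoxifen against saline (9 called) it was 1 with the intronic covariate and 3 to 11 with a library left out. For daily saline against water (1 called) it was 3 on total gene reads, 0 with the intronic covariate, 2 by DESeq2, 0 with only the libraries compared, and 0 to 1 with a library left out. For Scrambled 1 against water (0 called) it was 1 with the intronic covariate and 1 by DESeq2. The cause was not tested. The share of all genes called is not given for these alternatives, so their counts cannot be read as particular to the members. RLE scaling, unique exon reads, a stricter filter and Xist as a covariate moved no count by over 1.5 times.

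The labels tie same-numbered libraries by number only, and whether they shared a litter or batch cannot be told. Their deviations correlated at -0.40 to 0.48, with 11 of 36 pairs over 0.1. With a replicate block the counts were 3 for Miglyol against saline, 1 for tamoxifen against Miglyol and 4 for tamoxifen against saline. Itgad, with 44 exon reads in all, was below the filter on low counts at this depth.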
